A study of Homo sapiens with 6 samples.

Results

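The 39 genes described here act in homologous recombination or the Fanconi anaemia pathway and are given by name: each is the row of the deposited count table whose gene symbol is one of the listed members, and all 39 were found among 62700 genes. Of these, 35 had enough reads to be tested. Homologous recombination copies the intact sister chromatid to mend a broken chromosome, and the Fanconi anaemia pathway removes crosslinks that tie the DNA strands together and then hands the break to the same machinery. In outline, a sensor complex finds the break and starts the checkpoint kinases, nucleases trim the ends, the BRCA proteins prepare the trimmed strand, motor proteins help it invade the sister, and a helicase complex undoes the joined molecules. Most of this work is done in S and G2 phase, and many of the genes are transcribed with the cell cycle.

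The cells were SAS, a line derived from a human squamous carcinoma of the tongue, in 2 groups of 3 poly(A) RNA-seq libraries. One group had received a control siRNA (siC, genotype given as WT) and the other an siRNA against IGF2BP1 (siIGF2BP1, genotype given as IGF2BP1 knockdown); the labels give no time point, no siRNA sequence and no word on separate cultures, so the variation behind each p-value may be only technical. IGF2BP1 is an RNA-binding protein that stabilises many messages it binds. The stated question of the series is whether it counteracts the Hippo pathway's restraint of YAP1; how the repair genes respond is a description added to that design.

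Control libraries held 8.11, 9.60 and 11.2 CPM of IGF2BP1 (reads scaled to library size and between libraries) and knockdown libraries 1.59, 1.09 and 0.806 CPM. The groups did not overlap (log2 fold change -3.07, SE 0.30, edgeR adjusted p = 4.56e-06). Libraries held between 17918496 (knockdown 1) and 26675064 (control 3) reads, so that 3 reads corresponded to 0.115 to 0.165 CPM, a floor that covers counting error only. Epithelial markers were abundant, with KRT8 at 8460 CPM in controls, and 5 of 8 were lower after knockdown (summed level 22000 to 23800 CPM in controls and 11500 to 12300 CPM after knockdown). Of the leukocyte markers PTPRC and CD3E had 0 reads in every library, and the list summed to 0.115 to 0.883 CPM. Of 6 fibroblast markers COL3A1, DCN and LUM were at 0, COL1A1 stood at 6.31 CPM in controls, and PDGFRB was called higher (0.605 to 1.73 CPM, edgeR adjusted p = 0.0491); the list summed to 6.29 to 8.50 CPM in controls and 5.72 to 9.18 CPM after knockdown. Of 4 endothelial markers KDR was at 0 while VWF and CDH5 stood at 4.45 and 2.18 CPM in controls, with sums of 6.29 to 7.41 and 6.17 to 13.5 CPM. The part of such signal in the results was not tested. Libraries differed in how much AT-rich transcript they held. Protein-coding genes with under 42% GC made up 1.96% (control 1) and 2.01% (knockdown 1) of protein-coding reads at the low end and 2.85% in knockdown 2 at the high end.

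After knockdown, FANCA and RAD54L fell and no member was called higher. FANCA, a subunit of the Fanconi core complex, fell by 40.0%, and RAD54L, a motor protein that drives strand invasion of the sister duplex, fell by 36.9%. These are 2 of 35 tested members (5.71%), where 6.66% of all 14649 tested genes were called lower at an adjusted p under 0.05, so the share was near the background. The 0 members called higher stand beside a background of 6.27%; DESeq2 and limma-voom also called 0 higher, and at an unadjusted p under 0.05 edgeR gave 3 lower and 0 higher. The median log2 fold change was -0.07 over the tested members and 0.03 over all tested genes. With no scaling factor these medians were 0.01 and 0.12. In bulk RNA a smaller share of cells expressing a gene and less RNA per cell cannot be told apart. A low member can pass the read filter through the group in which it is higher, so these counts and medians describe the 35 that passed and not all 39.

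**Figure D1:**
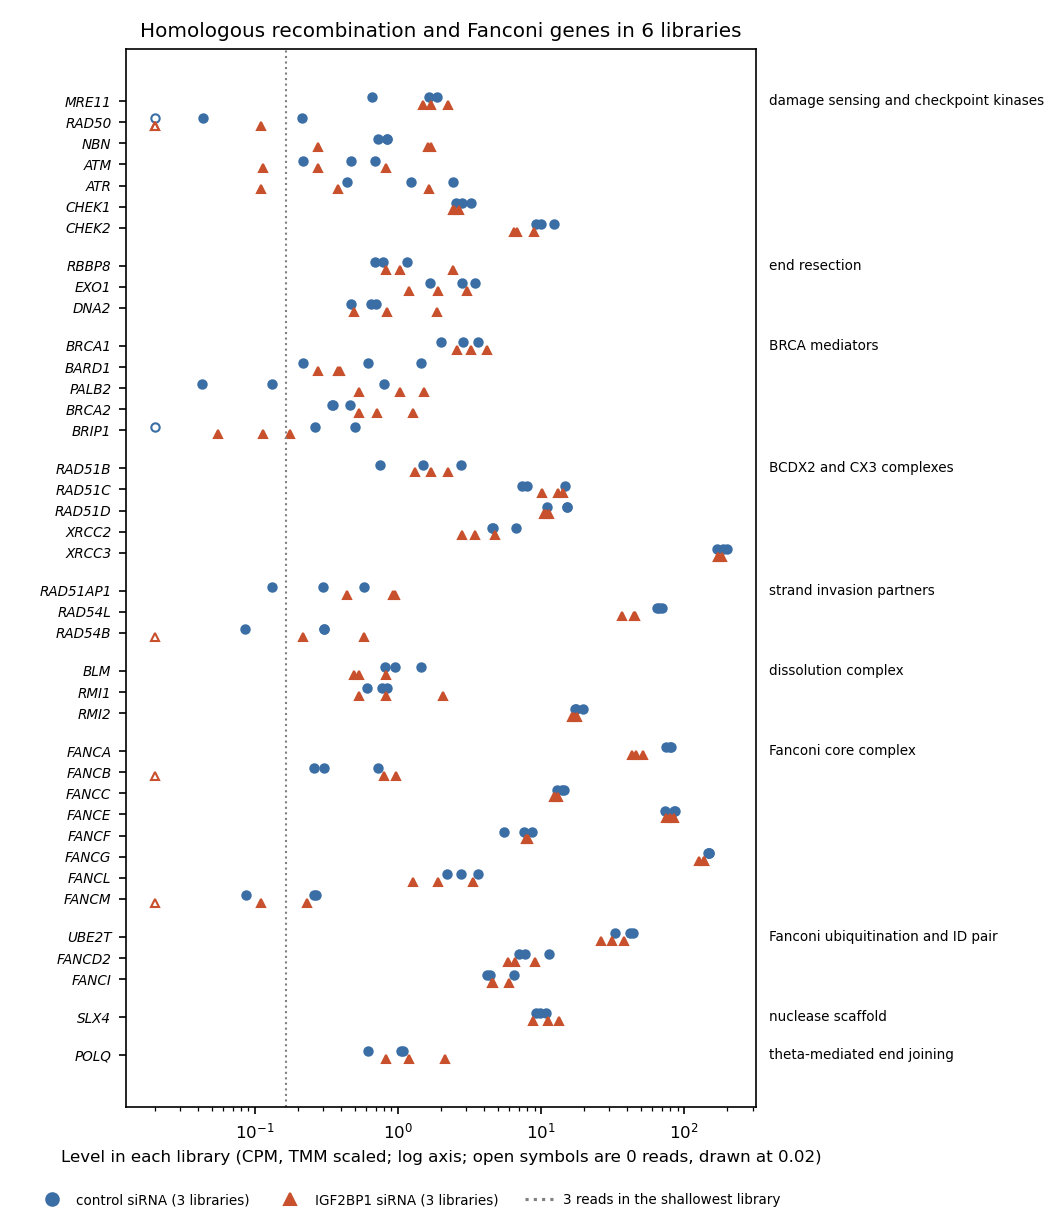
Level of each of the 39 members in each library, in CPM on a log axis, with controls as circles and knockdown libraries as triangles, grouped by role; the dotted line marks 3 reads in the shallowest library (0.165 CPM) and open symbols at the left edge are 0 reads. The members spread from 186 CPM (XRCC3) to 0.0864 CPM (RAD50) in controls, and only FANCA and RAD54L are called.

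Promoter sequence was read from RefSeq (GRCh38.p14), which gave the 250 bases before and 50 after the start for 34 of the 39 members; NBN, DNA2, RAD54B, RMI2 and FANCI were not matched. The stretch from 120 to 21 bases before the start is shown for both fallen genes, for FANCE as a similarly abundant core subunit with overlapping groups, and for BLM as a scarce member with an E2F-like match. Capitals mark E2F-like letters (RAD54L and BLM) and CCAAT on either strand; E2F factors drive S phase genes, and CCAAT is bound by NF-Y. Positions are RAD54L chr1:46247568-46247667 (plus), FANCA chr16:89816668-89816767 (minus), FANCE chr6:35452218-35452317 (plus) and BLM chr15:90717226-90717325 (plus).
RAD54L: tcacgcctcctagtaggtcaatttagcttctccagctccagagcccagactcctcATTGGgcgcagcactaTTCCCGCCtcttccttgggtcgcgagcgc
FANCA: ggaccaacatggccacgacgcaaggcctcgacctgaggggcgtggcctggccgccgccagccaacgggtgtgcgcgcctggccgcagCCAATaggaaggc
FANCE: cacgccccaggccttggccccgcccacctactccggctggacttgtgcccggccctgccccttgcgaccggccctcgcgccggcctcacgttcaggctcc
BLM: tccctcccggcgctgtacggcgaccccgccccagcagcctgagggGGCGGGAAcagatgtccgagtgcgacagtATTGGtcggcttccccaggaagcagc

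An E2F-like match was taken as TTTCCCGC, TTTGGCGC, TTTCGCGC, TTTGGCGG or TTCCCGCC on either strand, a promoter with overlapping matches counting once. It was present in 11 of 34 member promoters (32.4%), against 5.70% of 27305 promoters and 25 of 31 (80.6%) of the G1/S and replication genes described further on. The 11 were EXO1, BRIP1, XRCC2, XRCC3, RAD51AP1, RAD54L, BLM, FANCC, FANCL, FANCD2 and POLQ, so 1 of the fallen genes held a match and the other, FANCA, did not. In the 250 bases before the start alone the counts were 5 of 34 (14.7%), 19 of 31 (61.3%) for the G1/S and replication genes and 4.90% of all. Of 52 promoters of further recombination and Fanconi genes, also described further on, 11 (21.2%) held a match, and 4 (7.69%) in those 250 bases alone. CCAAT was in 15 of 34 (44.1%, against 35.7% of all promoters), and the CHR letters TTTGAA, typical of mitotic genes, in 5 of 34 (14.7%, against 15.4%). A match describes letters in this window and is not a binding site.

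The members differed far more from one another than between the groups. Per kilobase of the gene length in the deposited table (RPKM), FANCG stood highest in controls at 26.7 ± 0.380, then XRCC3 at 24.8 ± 1.97, UBE2T at 20.5 ± 2.93, FANCE at 17.4 ± 1.43, RAD54L at 16.4 ± 0.647 and FANCA at 6.36 ± 0.265 (SD, n = 3 each). Each neighbour in this order from FANCG to RAD54L lay within the summed SDs of the pair, and FANCA lay below RAD54L by more than that. The order and gaps depend on the length used: for FANCA the deposited length is 12316 bases and the longest coding transcript 5451. Per kilobase of that transcript, before scaling between libraries, XRCC3 (59.7 CPM) stood above FANCG (54.7 CPM), and FANCA (13.9 CPM) was nearer to RAD54L (20.9 CPM). At the other end RAD50, FANCM, ATM, BRIP1 and BRCA2 stood between 0.00818 and 0.0267 RPKM. The 6 most abundant members held 82.6% of the summed control CPM of all 39. The other 33 held 17.4%. This uneven representation decides what the comparison can show for each gene.

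**Figure D2:**
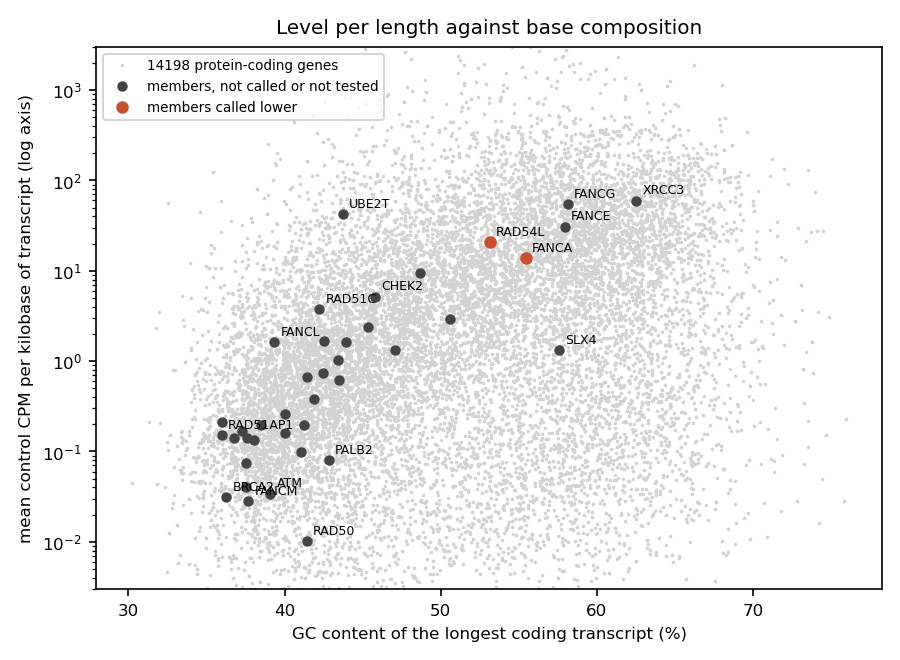
GC content of the longest protein-coding transcript of each gene against the mean control CPM per kilobase of that transcript, on a log axis from which a few extreme genes fall outside; grey dots are 14198 protein-coding genes with at least 1 read in a control, dark points are members and orange points are the members called lower. Members rise from RAD50 and FANCM at the lower left to FANCG and XRCC3 at the upper right, with UBE2T above the trend and SLX4 below it.

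Level followed base composition among the members. Over 39 members, the level per kilobase of transcript in controls had a Spearman rho of 0.81 with transcript GC content and of -0.59 with transcript length; over 14198 protein-coding genes the values were 0.40 and -0.30. These are descriptions across genes that share the same 6 libraries, and length and GC content are themselves related (-0.24 over the members). All 20 members under 42% GC stood between 0.0839 and 2.77 CPM in controls before scaling between libraries, with a median of 0.734. The 12 members from 42 to 50% GC had a median of 7.73 CPM, and the 7 from 50% upward had a median of 76.0 CPM. The bounds of 42 and 50% were chosen with these values known. Whether library preparation, RNA quality or the cells' own expression sets the relation was not tested. Level also varied within the low range: RAD50 and MRE11 form 1 complex in the cell, yet RAD50 had 1, 5 and 0 reads in controls and 2, 0 and 0 after knockdown, while MRE11 had 15, 38 and 49 reads and 31, 51 and 39.

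The low members also moved with single libraries. The summed level of the 20 members under 42% GC was 16.8, 21.3 and 20.3 CPM in controls 1 to 3 and 15.1, 29.8 and 17.7 CPM in knockdowns 1 to 3. Knockdown 2 was thus the highest library and knockdown 1 the lowest, within the same group, and 9 of the 20 genes had their highest value in knockdown 2. The 7 members from 50% GC upward ran the other way within the knockdown group, at 528, 475 and 504 CPM against 607, 574 and 572 CPM in controls.

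The break sensors and checkpoint kinases held 0 called genes among 6 tested (edgeR; 1 lower and 0 higher at an unadjusted p under 0.05). CHEK2, the effector kinase activated by ATM, was the member of this group with the highest level per length. It stood at 9.99, 12.3 and 9.25 CPM in controls and 6.43, 6.74 and 8.98 CPM after knockdown. All knockdown libraries lay below all controls, as for 15.1% of all tested genes, and the change did not pass the test (log2 fold change -0.50, SE 0.22, adjusted p = 0.154). CHEK1, the partner kinase that answers to ATR and restrains replication origins, stood at 2.54, 3.23 and 2.8 CPM and then 2.42, 2.67 and 2.46 CPM (-0.18, 95% interval -0.84 to 0.47). The apical kinases were too shallow to read: ATM had 5, 11 and 18 reads in controls and 5, 19 and 3 after knockdown, and ATR had 10, 56 and 32 and then 2, 38 and 10. The interval for ATR ran from -2.55 to 0.76 on the log2 scale, and an opposite-strand gene shares 16.4% of its exon bases. In the MRN sensor, MRE11, the nuclease, had a log2 fold change of 0.37 (-0.56 to 1.30) and NBN, the adaptor that recruits ATM, 0.59 (-0.64 to 1.82). NBN had 5 reads in knockdown 1 and 37 and 44 in knockdowns 2 and 3, so its groups overlapped.

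End resection is begun by RBBP8 (CtIP) with MRN and extended by EXO1 or by DNA2 with the BLM helicase. Of these nucleases and cofactors, 0 of 3 tested were called (edgeR; 0 at an unadjusted p under 0.05). EXO1 led the group per length, at 1.67, 3.45 and 2.8 CPM in controls and 1.92, 3.02 and 1.19 CPM after knockdown. The groups overlapped in part (log2 fold change -0.37, 95% interval -1.22 to 0.48). RBBP8 and DNA2 had positive values, 0.70 (-0.39 to 1.78) and 0.82 (-0.43 to 2.07), and both were highest in knockdown 2, which held 55 reads of RBBP8 against 15 to 27 in the other libraries and 43 reads of DNA2 against 9 to 22.

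The mediators that act on resected DNA were thinly sampled and 0 of 4 tested were called (edgeR; 0 at an unadjusted p under 0.05). BRCA1, the scaffold of the group, stood at 3.64, 2.84 and 2.00 CPM in controls and 3.24, 4.2 and 2.57 CPM after knockdown, with overlapping groups and a log2 fold change of 0.24 (-0.46 to 0.94). Its obligate RING partner BARD1 had 5, 34 and 16 reads and then 5, 9 and 10 (-1.10, -2.65 to 0.45). BRCA2, which acts on the resected single strand, had 8, 8 and 12 reads in controls and 13, 29 and 14 after knockdown. All its knockdown libraries lay above all controls, as for 15.5% of tested genes, and its log2 fold change of 1.11 did not pass (adjusted p = 0.297); without knockdown 2 it was 0.65 (adjusted p = 0.698). PALB2, the bridge between BRCA1 and BRCA2, had 3, 1 and 21 reads and then 19, 35 and 14 (1.62, adjusted p = 0.222). Without control 3, the highest control for PALB2, it was called higher (3.48, adjusted p = 0.0355), and this is the only member called higher in any of the fits run. BRIP1, the BRCA1-associated helicase, was not tested, with 6, 0 and 13 reads and then 1, 4 and 3.

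The subunits of the BCDX2 and CX3 complexes act early in strand exchange, and they ran from scarce to the most abundant member by CPM. Of 5 tested, 0 were called (edgeR; 0 at an unadjusted p under 0.05). XRCC3, which pairs with RAD51C, stood at 200, 187 and 170 CPM in controls and 184, 173 and 172 CPM after knockdown. Its narrow interval, -0.29 to 0.14 on the log2 scale, left no room for a change as large as that of RAD54L. An opposite-strand gene shares 76.7% of the exon bases of XRCC3 (KLC1, itself -0.37, edgeR adjusted p = 0.128). If reads were counted without strand, the level and change of XRCC3 may therefore be off in either direction. RAD51C had a log2 fold change of 0.33 (-0.19 to 0.86), RAD51D of -0.35 (-0.76 to 0.05), XRCC2 of -0.52 (-1.13 to 0.10) and RAD51B of 0.07 (-0.90 to 1.04). RAD51D and XRCC2, which work together with RAD51B and RAD51C in the BCDX2 complex, thus had negative values and RAD51C a positive one, none beyond the replicate spread.

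Among the partners of strand invasion, RAD54L (ENSG00000085999; GRCh38 chromosome 1, 46247688 to 46278473, plus strand) was the clear change. Its level was 69.7, 66.3 and 64.5 CPM in controls and 45.2, 36.8 and 44.6 CPM after knockdown. Each knockdown library lay below each control, and the log2 fold change was -0.66 (SE 0.12, 95% interval -0.92 to -0.41, edgeR adjusted p = 0.00147). The fall lay between -0.72 and -0.58 in the 14 other fits run and was called in each. RAD51AP1, a small protein that aids strand pairing, had 3, 7 and 15 reads and then 8, 21 and 25 (1.19, -0.29 to 2.66). RAD54B, the paralog of RAD54L, was not tested, with 7, 2 and 8 reads and then 0, 5 and 15. The 2 paralogs thus differed in level by a wide margin, 16.4 against 0.0439 RPKM in controls. They also differ in transcript GC content, 53.1% for RAD54L and 37.5% for RAD54B, and its part in this gap was not tested.

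The dissolution complex takes joined molecules apart without crossing over. Of its 3 members here, 0 were called (edgeR; 0 at an unadjusted p under 0.05). RMI2, a small stabilising subunit, was the best measured, at 17.4, 17.2 and 19.5 CPM and then 16.4, 17.1 and 17.9 CPM, with a log2 fold change of -0.07 (-0.40 to 0.26). BLM, the helicase mutated in Bloom syndrome, had 33, 19 and 25 reads and then 9, 19 and 14 (-0.78, -1.92 to 0.36). RMI1 had 14, 18 and 22 reads and then 15, 47 and 14, again highest in knockdown 2 (0.61, -0.60 to 1.81).

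The Fanconi core complex is a multi-subunit ubiquitin ligase, and its messages did not move as 1 unit. FANCA (ENSG00000187741; chromosome 16, 89737549 to 89816657, minus strand) stood at 80.8, 74.6 and 79.5 CPM in controls and 51.2, 43.5 and 46.3 CPM after knockdown. The groups were far apart relative to their spread (log2 fold change -0.74, SE 0.11, 95% interval -0.98 to -0.49, edgeR adjusted p = 0.00039), and the fall was called in all 14 other fits, between -0.81 and -0.65. FANCG, which binds FANCA directly, stood at 146, 149 and 150 CPM and then 137, 126 and 137 CPM. Each of its knockdown libraries was also lower than each control, and the mean by 10.1%, without passing (-0.15, SE 0.10, adjusted p = 0.363). FANCE, the subunit that contacts FANCD2, stood at 85.7, 73.5 and 84.4 CPM and then 85.0, 74.9 and 79.9 CPM, fully overlapping (-0.02, 95% interval -0.26 to 0.21).

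The ratio of FANCA to its partners was therefore read within each library, where no scaling between libraries enters. The log2 ratio of FANCA to FANCG reads was -0.85, -1.0 and -0.91 in controls and -1.42, -1.53 and -1.57 after knockdown. That of FANCA to FANCE was -0.08, 0.02 and -0.09 and then -0.73, -0.78 and -0.79. The ratio of RAD54L to XRCC3, a further pair of abundant members, went from -1.52, -1.50 and -1.40 to -2.03, -2.24 and -1.95. None of the 3 ratios overlapped between groups, and each gave p = 0.1 in a two-sided exact permutation test (0.1 after adjustment over the 3), the smallest value that 3 against 3 libraries allow. These pairs were chosen after their values were seen. They set the 2 called genes against uncalled partners, so their separation restates the calls and is no added support. UBE2T, also among the 6 most abundant members, was not used as a partner, and against it both genes overlapped between groups. Control 2 held 1540 reads of RAD54L, 1733 of FANCA and 1013 of UBE2T, and knockdown 1 held 822, 931 and 475.

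**Figure D3:**
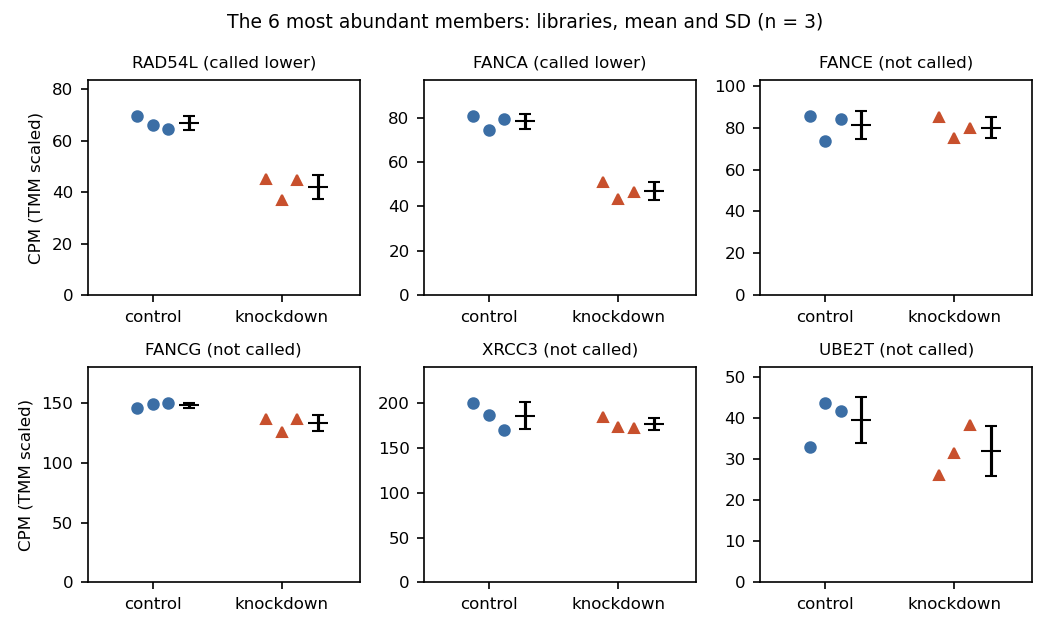
CPM of the 6 most abundant members in each library (circles for control, triangles for knockdown), with the mean and SD of 3 libraries as a dash and error bar beside the points; each axis starts at 0. RAD54L and FANCA separate by more than their spread. FANCG also separates, by a smaller share of its level, and is not called. FANCE and UBE2T overlap between groups, and XRCC3 differs by less than its spread.

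Exons of both fallen genes overlap a neighbour on the opposite strand at the far end. LRRC41 shares 25.1% of the exon bases of RAD54L, and ZNF276 shares 23.6% of those of FANCA. The neighbours had log2 fold changes of 0.04 (adjusted p = 0.856) and 0.12 (adjusted p = 0.724), and neither passed the test. The strand setting of the counting is not given in the sources used here, and the effect of the shared exon bases on these values was not tested.

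The remaining core subunits were lower in level and 0 were called. FANCC had a log2 fold change of -0.13 (-0.49 to 0.23) at 13.9 ± 0.744 CPM in controls, and FANCF, the adaptor between subcomplexes, 0.14 (-0.34 to 0.62) at 7.24 ± 1.6 CPM (SD, n = 3 each). FANCL, the subunit that carries the ligase activity, had 50, 64 and 94 reads and then 35, 76 and 33 (-0.40, -1.21 to 0.42). Opposite-strand genes share 19.7% of the exon bases of FANCL and 11.3% of those of FANCF. FANCB, encoded on the X chromosome, had 7, 6 and 19 reads and then 0, 22 and 21 (0.47, -1.38 to 2.32). FANCM, the translocase that anchors the complex on DNA, was not tested, with 2, 6 and 7 reads and then 2, 0 and 6.

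The core complex works with UBE2T, the ubiquitin-conjugating enzyme, to mark the FANCI and FANCD2 clamp. UBE2T stood at 33.0, 43.6 and 41.8 CPM in controls and 26.1, 31.4 and 38.2 CPM after knockdown. The groups overlapped, and the log2 fold change was -0.31 (-0.64 to 0.03, adjusted p = 0.244). The clamp subunits had -0.28 for FANCD2 (-0.81 to 0.25) and 0.00 for FANCI (-0.57 to 0.57), at 8.68 ± 2.35 and 5.03 ± 1.30 CPM in controls (SD, n = 3 each). SLX4, the scaffold for the nucleases that unhook the crosslink, stood at 9.90, 9.22 and 10.9 CPM and then 13.3, 8.79 and 11.1 CPM, with overlapping groups (0.14, -0.30 to 0.57). POLQ, the polymerase of the error-prone end joining route that competes with recombination, had 24, 25 and 16 reads and then 15, 49 and 31, highest in knockdown 2 (0.61, -0.44 to 1.66).

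**Figure D4:**
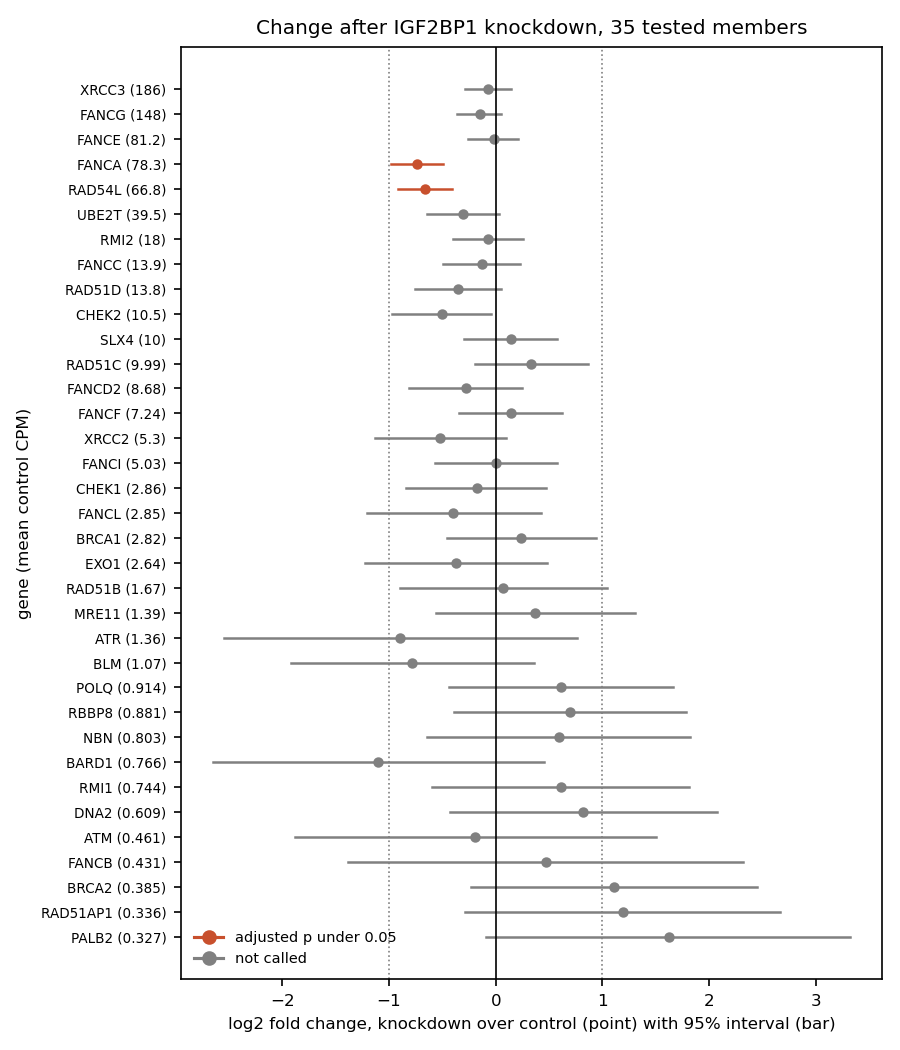
Log2 fold change of knockdown over control (point) with its 95% interval (bar) for the 35 tested members, ordered from the most to the least abundant in controls; dotted lines mark a change of 1 on the log2 scale and orange marks an adjusted p under 0.05. Intervals widen from 0.41 at the top to 3.7 at the low end, and FANCA and RAD54L are the called members.

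How tightly a change was bounded depended on level. Of the 16 members with at least 5 CPM in a group, 15 had a 95% interval that lay within 1 on the log2 scale on both sides. The median interval width of the 16 was 0.765. In 12 of the 16 the value was negative, and the median was -0.14. Among these 12, FANCE, XRCC3 and RMI2 were near 0 and turned positive with no scaling factor. Of the 19 members below that level, 2 were bounded in this way and the median width was 2.41. Their median value was 0.37, and 12 of 19 were positive. Over all tested genes of any level, 46.7% of values were negative. Over all tested genes the median was -0.01 for 8352 genes at or above 5 CPM in a group and 0.14 for 6297 genes below it. Calls in these ranges were 10.9% lower and 8.88% higher above that level, against 2 lower and 0 higher of the 16 members. Below it they were 0.985% lower and 2.79% higher, against 0 of the 19 members (0 at an unadjusted p under 0.05; 0 by DESeq2 and limma-voom).

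Summed over all 39 members, the level was 728, 726 and 725 CPM in controls and 640, 617 and 639 CPM after knockdown. FANCA and RAD54L made up 55.9 of the 94.4 CPM difference, which is 59.2%. Without these 2 genes, whose values were known when they were left out, the sums were 578, 585 and 581 CPM against 543, 537 and 548 CPM. These sums and the share of 59.2% depend on the scaling between libraries. The TMM factor was lower in every control than in every knockdown library, which raises the control sums relative to the knockdown sums. Whether the sums without FANCA and RAD54L differ between groups with no scaling factor was not tested, so they do not show a fall of the other members.

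**Figure D5:**
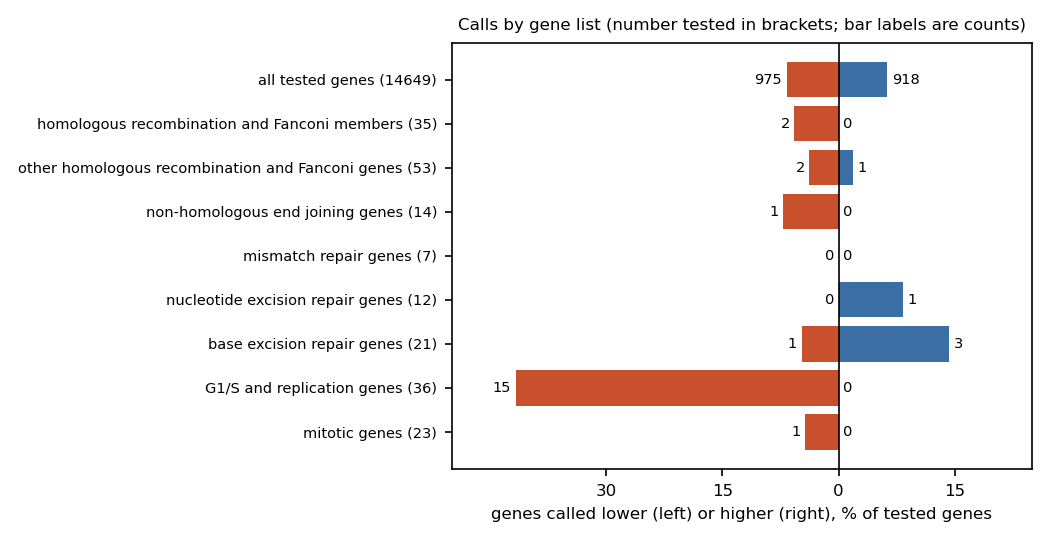
Share of tested genes called lower (left, orange) and higher (right, blue) in each gene list, in percent, with the number of calls beside each bar and the number tested in brackets. The 2 of 35 recombination and Fanconi members lie near the bar for all tested genes, and the G1/S and replication list reaches 15 of 36.

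The pathway has further genes beyond the members. Of 60 further recombination and Fanconi genes 59 were found and 53 tested. Of these, 2 were called lower (3.77%) and 1 higher (1.89%), with a median of -0.09. Both shares lay below those over all tested genes, 6.66% lower and 6.27% higher. ERCC1, the partner of the XPF nuclease that cuts at crosslinks, rose by 0.68 on the log2 scale (SE 0.11, edgeR adjusted p = 0.000523), its mean CPM (± SD, n = 3 each) going from 59.9 ± 2.56 to 95.9 ± 6.21; CD3EAP on the opposite strand shares 28.6% of its exon bases. RFWD3, a ubiquitin ligase that clears proteins from damaged DNA, fell from 38.8 ± 0.682 to 26.3 ± 1.5 CPM (SD, n = 3 each; -0.56, adjusted p = 0.00827). TONSL, which recognises newly replicated chromatin, had -0.35 (edgeR adjusted p = 0.0325). It did not pass in fits with no scaling factor or that left out control 1, control 2, knockdown 2 or knockdown 3 (adjusted p up to 0.0949).

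The competing and neighbouring repair routes were read against the same background of 6.66% lower and 6.27% higher. Non-homologous end joining had 1 lower and 0 higher of 14 tested genes (edgeR; 1 and 1 at an unadjusted p under 0.05; 0 higher by DESeq2 and limma-voom). The lower gene was XRCC6, the Ku70 subunit (-0.35, adjusted p = 0.0339), which did not pass with no scaling factor or in fits that left out control 2, control 3, knockdown 2 or knockdown 3 (up to 0.125). Mismatch repair had 0 of 7 (0 lower and 1 higher at an unadjusted p under 0.05; 0 by DESeq2 and limma-voom). Nucleotide excision repair had RAD23B higher (0.38, adjusted p = 0.0494) and 0 lower of 12, a call lost with RLE scaling, by limma-voom and without any 1 library (up to 0.257). In base excision repair 3 of 21 genes were called higher (14.3%) and 1 lower (4.76%). PARP1, the break sensor whose inhibitors are used against recombination-deficient tumours, stood at 77.0, 83.1 and 84.7 CPM in controls and 167, 163 and 161 CPM after knockdown. It rose by 1.01 on the log2 scale (SE 0.10, edgeR adjusted p = 5.45e-06), as did the glycosylase genes MPG (0.46) and NEIL2 (0.64), while LIG1, the replicative ligase, fell (-0.51). MPG shares 27.3% of its exon bases with an opposite-strand gene, and its call was lost without control 2 (adjusted p = 0.0535); that of NEIL2 was lost without any 1 control or knockdown 1 (up to 0.119).

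Cell cycle genes were read beside the members because recombination genes follow the cycle. Of 36 G1/S and replication genes 15 were lower and 0 higher (41.7%; 19 and 0 at an unadjusted p under 0.05; 0 higher by DESeq2 and limma-voom), with a median of -0.32. This list was assembled with its fall already known. CDC25A (-1.02), UHRF1 (-0.77) and the cyclin E1 gene CCNE1 (-1.24) had the smallest p-values. Its summed level was 4700 to 5000 CPM in controls and 3470 to 4000 CPM after knockdown. Of 23 tested mitotic genes 1, CDC25C, was lower and 0 higher (5 and 0 at an unadjusted p under 0.05; 0 higher by DESeq2 and limma-voom), a call at an adjusted p of 0.0486 that was lost without any 1 library and with no scaling factor (up to 0.129). The sums were 1730 to 1810 and 1520 to 1650 CPM. The part of these changes in the falls of FANCA and RAD54L was not tested.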

How the data were processed

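The authors deposited unnormalized read counts for each gene, with a gene length in bases as another deposited column. Per the submitters' processing notes, cutadapt 2.8, HISAT2 2.1.0, SAMtools 1.10, featureCounts 2.0.0 and build hg38 were used; their order, settings and strand mode and the annotation are not given in the sources used. Per the labels' protocols, libraries were strand-marked (dUTP) and poly(A) selected. Columns were matched by library name, and 0 were left unused.

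Genes passing filterByExpr (minimum count 10, total 15; 14649 genes) were fitted with edgeR 4.0.16 in R 4.3.3 (TMM, robust quasi-likelihood test, Benjamini-Hochberg over all tested genes, called under 0.05). Intervals are 95% and use the test's degrees of freedom; CPM values are TMM scaled unless stated. Alternatives used limma 3.58.1 and DESeq2 1.42.0. The fit was tested on simulated data. Coordinates, exon overlap and transcript GC content come from GENCODE 29 (GRCh38).

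The members and gene lists were chosen with earlier results of these data known. Members given library by library were set by a rule: called, unadjusted p under 0.05, or the highest per length in a role group; values of others were added after they were seen. From each other list up to 3 called genes per direction were named. Replicates of a group differed by more than sampling noise (chi-square per degree of freedom 14.6 to 36.2), so none was a copy.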

Additional observations from a re-analysis of the deposited data

How the results depend on the processing

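Both falls, of FANCA and RAD54L, were called in all 14 other fits: DESeq2, limma-voom, a replicate block, RLE scaling, no scaling factor, a stricter or no count filter, each library left out, and a GC correction that was chosen after seeing the data. The count of members called lower was 2 in each, and that of members called higher was 0 except without control 3 (PALB2), so leaving out 1 library gave 0 to 1. Over all genes the calls higher ran from 529 (without control 2) to 828 with a library left out, against 918, with 585 without control 1 and 587 without knockdown 3; fewer samples remain in those fits. With no scaling factor all genes called lower numbered 768 and all genes called higher 1319, so that 63.2% of calls were higher against 48.5%. The median of the members ran from -0.14 to -0.01 without a library and was 0.01 with no scaling factor.

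With the replicate number as a block, all genes called lower numbered 1273 and all genes called higher 1158, and 2 members were lower and 0 higher. The labels do not say that a number marks a shared culture or day, so the numbers were not taken as pairs. Deviations from the group mean had correlations of 0.18, 0.09 and -0.07 between same-numbered libraries. Between differently numbered libraries they ran from -0.23 to 0.17. Whether a number marks a shared batch was not tested.

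Among 33 uncalled members 10 changed sign in some fit, uncalled each time; the cause was not tested. FANCI was -0.01 with RLE scaling, no count filter, DESeq2 and the GC correction, and -0.15, -0.10 and -0.17 without control 1, control 2 and knockdown 2. With no scaling factor FANCE was 0.06, XRCC3 0.01 and RMI2 0.01; FANCE was 0.01 with the stricter filter. FANCB was -0.33 by limma-voom and -0.05 without knockdown 2, where RMI1 was -0.17. FANCF was -0.03 without control 2, and SLX4 -0.01 without knockdown 1. ATM was 0.23, 0.01 and 0.27 without control 3, knockdown 1 and knockdown 3, and RAD51B -0.31, -0.01 and -0.15 without control 1, control 3 and knockdown 3. With 1 library left out the ranges were -1.30 to 0.27 for ATM, -0.05 to 1.08 for FANCB, -0.03 to 0.28 for FANCF, -0.17 to 0.23 for FANCI, -0.31 to 0.62 for RAD51B, -0.17 to 0.95 for RMI1 and -0.01 to 0.25 for SLX4. The 19 tested members under 5 CPM had few reads and wide intervals, and 4 had too few reads to be tested.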
